A study of Homo sapiens with 6 samples.

Results

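Peaks of the histone variant H2A.Z that carried every other measured signal, yet lay far from the ends of protein-coding genes, numbered 1011 in HEK293T cells. They were chosen from the H2AZ Abcam list on chromosomes 1 to 22 and X, as peaks of up to 2000 bp that overlapped by at least 1 bp a peak of each of the H2AZ CST, H3.3, H4K16ac and H3K79me2 lists. In addition they lay more than 5 kb from both ends of every RefSeq protein-coding gene. They are called distal 5-signal sites here. The whole H2AZ Abcam list held 44634 peaks, of which 44384 were up to 2000 bp wide and 18364 of those were distal. Overlap, H2AZ Abcam width and distance to gene ends chose the sites, so these are given as description only.

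The study mapped histone variants and marks by chromatin immunoprecipitation and sequencing (ChIP-seq) in HEK293T, a kidney-derived human embryonic cell line with SV40 large T antigen. Fixation was in 1% formaldehyde for 10 min, and 6 libraries were made. H2AZ was mapped with 2 antibodies (Abcam and CST), H3K79me2, H4K16ac and H3.3 with 1 each, and no values of the input library were used. With 1 library per antibody there was no replicate spread and no test between libraries. The labels give no treatment or genotype that differs between libraries. In the H3K79me2 list 4 of 6 genes taken as expressed in HEK293 cells had a peak at an end. PAX2 and NES were without one. Of 6 genes of other lineages, such as ALB and PTPRC, 0 had one. Among 13710 protein-coding genes over 10 kb that held none of the sites, 59.4% had an H3K79me2 peak at an end. The count of 4 of 6 is close to that general share, and cell identity was not tested.

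H2A.Z and H3.3 replace the canonical histones H2A and H3 in nucleosomes that flank active starts of transcription. KAT8 acetylates lysine 16 of histone H4. DOT1L methylates lysine 79 of histone H3 behind elongating RNA polymerase II, so H3K79me2 is known as a mark of transcribed sequence downstream of a start. Many genes have more than one start, and an inner start gives a shorter transcript from the same locus.

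At the strongest sites with an inner start the sequence at that start was rich in CG dinucleotides. The sequences below come from the RefSeq table of starts (GRCh38.p14) and cover 250 bases before to 50 bases after a start, read 5′ to 3′ on the gene's strand, with every CG in capitals. They are shown because these 3 hosts have the highest H2AZ Abcam −log10 q (the authors' significance value of a peak) among sites with an inner start, which lies inside the peak in each, and have another listed start more than 5 kb away, so the windows of the same gene can be compared. SLC12A9 belongs to the cation-chloride cotransporter family (inner window chr7:100852463-100852762, plus strand, and outermost window chr7:100826619-100826918). TRIM36 encodes a tripartite-motif ubiquitin ligase (inner chr5:115169859-115170158, minus strand, and outermost chr5:115180245-115180544). CNPY1 belongs to the canopy family (inner chr7:155509825-155510124, minus strand, and outermost listed chr7:155533813-155534112). LINC01023, a long non-coding RNA gene (chr5:108728212-108728511, minus strand), is shown as the strongest site outside protein-coding genes whose peak overlapped a lncRNA gene end.
SLC12A9 inner start: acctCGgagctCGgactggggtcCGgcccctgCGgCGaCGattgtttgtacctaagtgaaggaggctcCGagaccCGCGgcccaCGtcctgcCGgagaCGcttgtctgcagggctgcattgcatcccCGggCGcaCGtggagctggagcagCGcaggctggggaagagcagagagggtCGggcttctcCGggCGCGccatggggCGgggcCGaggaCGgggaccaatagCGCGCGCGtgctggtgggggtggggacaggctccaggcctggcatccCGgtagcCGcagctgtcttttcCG
SLC12A9 outermost start: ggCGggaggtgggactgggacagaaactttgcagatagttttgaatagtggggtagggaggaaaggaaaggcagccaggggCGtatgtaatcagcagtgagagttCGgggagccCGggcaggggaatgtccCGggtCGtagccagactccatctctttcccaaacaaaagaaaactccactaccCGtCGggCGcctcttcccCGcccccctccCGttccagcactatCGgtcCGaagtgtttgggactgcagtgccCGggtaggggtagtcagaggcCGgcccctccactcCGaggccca
TRIM36 inner start: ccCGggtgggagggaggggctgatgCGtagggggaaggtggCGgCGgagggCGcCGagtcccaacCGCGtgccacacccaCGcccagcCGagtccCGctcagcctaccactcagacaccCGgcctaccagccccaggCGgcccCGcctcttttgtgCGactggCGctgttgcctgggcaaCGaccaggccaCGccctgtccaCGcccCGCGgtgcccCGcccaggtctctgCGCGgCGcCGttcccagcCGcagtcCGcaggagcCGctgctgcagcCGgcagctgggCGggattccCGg
TRIM36 outermost start: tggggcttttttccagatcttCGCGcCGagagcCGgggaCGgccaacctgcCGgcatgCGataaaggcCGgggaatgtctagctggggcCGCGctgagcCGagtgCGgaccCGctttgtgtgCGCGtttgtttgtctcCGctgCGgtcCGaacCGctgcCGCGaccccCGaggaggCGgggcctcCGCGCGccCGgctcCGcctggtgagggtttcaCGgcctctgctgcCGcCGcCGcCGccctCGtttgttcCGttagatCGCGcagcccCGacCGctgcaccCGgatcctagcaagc
CNPY1 inner start: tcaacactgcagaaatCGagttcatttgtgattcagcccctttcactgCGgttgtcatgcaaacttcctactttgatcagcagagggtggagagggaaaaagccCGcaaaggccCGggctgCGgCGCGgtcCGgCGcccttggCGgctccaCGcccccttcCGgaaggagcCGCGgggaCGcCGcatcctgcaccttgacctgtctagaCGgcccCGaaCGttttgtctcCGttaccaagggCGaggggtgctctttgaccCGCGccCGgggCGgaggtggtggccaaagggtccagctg
CNPY1 outermost listed start: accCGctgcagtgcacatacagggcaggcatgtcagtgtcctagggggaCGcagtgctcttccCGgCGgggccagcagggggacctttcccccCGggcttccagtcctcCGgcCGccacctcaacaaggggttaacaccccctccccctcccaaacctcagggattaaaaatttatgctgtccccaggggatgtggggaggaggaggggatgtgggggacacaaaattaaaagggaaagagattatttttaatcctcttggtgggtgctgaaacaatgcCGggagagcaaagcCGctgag
LINC01023 start: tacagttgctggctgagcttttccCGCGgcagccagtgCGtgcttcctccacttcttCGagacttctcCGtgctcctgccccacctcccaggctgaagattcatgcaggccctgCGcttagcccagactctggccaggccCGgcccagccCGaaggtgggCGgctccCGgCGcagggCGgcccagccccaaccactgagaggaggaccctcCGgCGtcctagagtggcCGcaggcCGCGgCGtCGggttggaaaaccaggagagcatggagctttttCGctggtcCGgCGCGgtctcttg
The inner window held 30 CG dinucleotides in SLC12A9 and the outermost 16. In TRIM36 the inner window held 32 and the outermost 40. In CNPY1 the inner window held 25 and the outermost listed window 9. The LINC01023 window held 23. The outermost SLC12A9 window overlapped a peak of all 5 lists, that of TRIM36 only H2AZ Abcam and H2AZ CST peaks, and that of CNPY1 peaks of H2AZ Abcam, H2AZ CST and H3.3. These are overlaps with the printed windows alone. Within 1 kb of the outer start of TRIM36 all 5 lists had a peak.

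Over all sites the windows under the peaks were close in base composition to those at gene ends, with a slightly higher GC content. The distal 5-signal sites overlapped 544 start windows with a median GC content of 69.7% (95% interval 68.7 to 70.3) and a median of 30 CG dinucleotides (28 to 31). The 6231 windows under 5-signal peaks within 1 kb of a protein-coding gene end, called gene-end 5-signal sites, had 68% (67.7 to 68.3) and 29 CG (29 to 29). The 1568 windows under distal H2AZ Abcam peaks that lacked at least 1 other signal had 64.3% (64 to 65) and 20 CG (19 to 21). All 34787 windows of the table without ambiguous bases had 58.7% and 14 CG. The GC box, searched as GGGCGG on both strands, lay in 74.6% of windows at distal 5-signal sites, 78.4% at gene-end sites and 44.9% of all windows. The ETS core CCGGAAG lay in 13.4% of windows at distal 5-signal sites, 20.9% at gene-end sites and 10.2% of all windows. The cyclic AMP response element TGACGTCA lay in 0.919%, 3.42% and 1.84% in the same order. The first of these is 5 of 544 windows, and its interval (0.299 to 2.13) includes the share of all windows. TATAAA lay in 3.68%, 3.39% and 11.6%. Matches of different motifs may share bases, and a match describes the window, not a bound site.

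The sites were 5.51% of the 18364 distal H2AZ Abcam peaks of up to 2000 bp, and 6410 further peaks with all the signals lay within 1 kb of a gene end. A further 726 lay between 1 and 5 kb. Joined where they were under 5 kb apart, the 1011 sites formed 876 loci, so several peaks can belong to 1 start. They lay on every chromosome analysed, with chromosome 19 giving 87 sites, or 9.08% of its distal peaks (7.34 to 11.1), and chromosome 20 giving 20, or 3.55% (2.18 to 5.43). The sites just outside the 5 kb limit lay in ATN1 at 5013 bp, near VPS16 at 5024 bp and near CSTB at 5031 bp from an end. Peaks just inside it lay at 4968 bp (GLI2), 4955 bp (PMVK) and 4945 bp (IL17RD). The widest sites were 1970, 1970 and 1961 bp, and the narrowest distal 5-signal peaks over the width limit were 2008, 2100 and 2115 bp. Intervals are 95% exact binomial intervals for shares and order-statistic intervals for medians. They cover counting error only and treat sites as separate, although neighbours share a locus.

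Most of the sites lay inside a protein-coding gene, called the host. This held for 762 of 1011 sites (75.4%, 72.6 to 78.0), against 37.6% (36.9 to 38.3) of the 17353 distal peaks without all the signals, and 39.7% of all distal peaks. Other distal peaks with H3K79me2 also lay mostly in hosts. By combination of the lists that overlapped, the share ran between 67.1% and 85.7% with H3K79me2, and between 28.4% and 46.8% without it. It was 77.8% of the 418 peaks that lacked H4K16ac alone and 41.1% of the 3053 that lacked H3K79me2 alone. The hosts numbered 606, or 4.23% of the 14316 protein-coding genes over 10 kb. Their median length was 81140 bp (71445 to 90488), against 40675 bp for the other genes over 10 kb. Hosts were more frequent among long genes, which hold more sequence far from their ends. Of the length quartiles, 1.12% of the shortest quartile of these genes were hosts, and 7.66% of the longest quartile, which starts at 92867 bp. A single site was found in 490 hosts, and 116 had at least 2. Exons, introns and untranslated regions are not given in the table used here and were not assigned.

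Within hosts the sites lay nearer the outer 5′ end. Over the 656 sites in hosts of known strand the median position was 37.7% of the gene length from the outer 5′ end (34.8 to 40.3), and 66% (62.2 to 69.6) lay in the first 50% of the length. The 5069 other distal peaks in genes of known strand had a median of 48.1% (47.3 to 49.3), with 52.2% (50.8 to 53.5) in the first 50%. In base pairs the median distance from the outer 5′ end was 25112 bp for the sites and 38467 bp for the other distal peaks. In the last 10% of the host lay 8 of the 656 sites and 280 of the 5069 others.

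**Figure D1:**
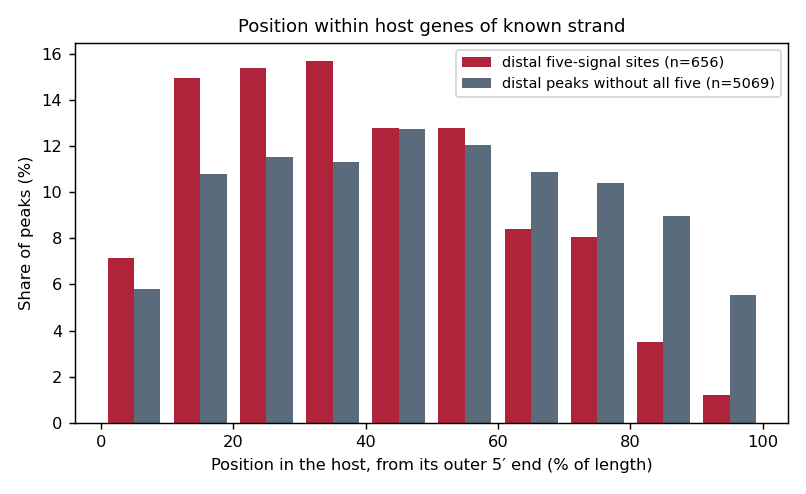
Share of peaks (y axis, %) in each 10% of the host's length from its outer 5′ end (x axis), for distal 5-signal sites in red and distal H2AZ Abcam peaks without all the signals in grey. The sites are most frequent between 10% and 40% of the length and only 1.22% of them fall in the last 10%, against 5.52% of the other peaks.

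Most of the sites had an annotated start or gene end beside them although they were far from the outer ends of genes. Within 1 kb of 613 of 1011 sites (60.6%, 57.5 to 63.7) lay a listed start of the host or an end of a gene that is not protein-coding. The share was 22.1% (21.5 to 22.7) for distal peaks without all the signals and 24.2% over all distal peaks. A listed inner start of the host lay beside 419 sites (41.4%, 38.4 to 44.6), against 6.76% (6.39 to 7.14) of the other distal peaks. An end of a lncRNA gene, with no host start, lay beside 149 sites (14.7%, 12.6 to 17.1), against 10.6% (10.2 to 11.1) of the other distal peaks. The end of another non-coding gene or pseudogene lay beside 45 (4.45%), against 4.74%. No annotated start or end was found within 1 kb of 398 sites. Starts were listed for the hosts of 656 of the 762 sites inside genes, and for no host on chromosome 8. Among these 656 the share with an inner start was 63.9% (60.1 to 67.6), against 23.1% (22 to 24.3) of the other distal peaks in hosts with an entry.

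Distal peaks with H3K79me2 had an annotated start or end more often than those without it. The share was 60.6% at the 5-signal sites, against 21.2% (19.7 to 22.7) of the 3053 peaks that overlapped H2AZ CST, H3.3 and H4K16ac but no H3K79me2. Where H3K79me2 was the only other list to overlap, the share was 63.7% (54.1 to 72.6) of 113 peaks. With H3K79me2 and H2AZ CST it was 77.6% (70.4 to 83.8) of 161 peaks, and with H3K79me2, H2AZ CST and H3.3 it was 67% (62.2 to 71.5) of 418 peaks. The lowest share with H3K79me2 was that of the group with H3.3 and H4K16ac but no H2AZ CST, at 28.3% (19.4 to 38.6) of 92 peaks, against 13.9% (11.9 to 16) of the 1155 with H3.3 and H4K16ac alone. H3K79me2 with H4K16ac alone held only 7 peaks. The 8 combinations without H3K79me2 lay between 13.2% and 28%.

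Within quartiles of H2AZ Abcam strength the intervals with and without H3K79me2 lay apart, except in the lowest quartile. The 5-signal sites and the peaks that lacked H3K79me2 alone were divided into quartiles of their joint H2AZ Abcam −log10 q, computed per peak by the authors. The quartiles are broad, the highest running between 119 and 511, so peaks in the same quartile can differ in strength. In the highest quartile 71.9% (67.5 to 76.1) of the 5-signal sites and 37.9% (33.9 to 42.0) of the peaks without H3K79me2 had an annotated start or end. In the next quartile the shares were 62.9% (57.6 to 67.9) and 23.9% (20.7 to 27.3). In the second lowest quartile they were 42.7% (34.8 to 50.8) and 17.5% (15.0 to 20.2). In the lowest quartile they were 14.3% (6.75 to 25.4) and 12.4% (10.4 to 14.6), and these intervals overlapped. By quartiles of peak width the shares were 66.7%, 66%, 58.3% and 27.3% for the 5-signal sites from widest to narrowest, and 32.4%, 24%, 19.7% and 12.3% for the peaks without H3K79me2. These groups also differed in location, as 75.4% of the 5-signal sites and 41.1% of the peaks without H3K79me2 lay in a host. By the distance rule no listed host start can lie beside a peak outside protein-coding genes, so the 249 sites there had 0. How far location or strength goes with the difference in shares was not tested.

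**Figure D2:**
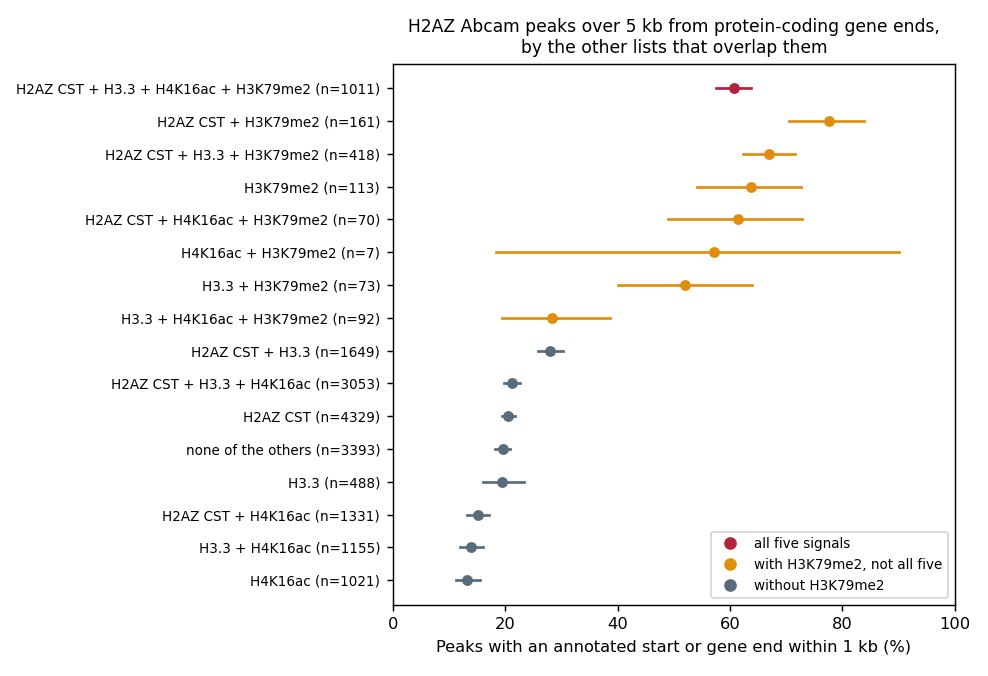
Share of distal H2AZ Abcam peaks with an annotated start or gene end within 1 kb (x axis, %), for each combination of the other lists (y axis, n in brackets), with 95% exact binomial intervals as lines. The shares of all combinations with H3K79me2 other than that with H3.3 and H4K16ac but no H2AZ CST lie above 50%. Those without H3K79me2 lie at or below 28%. Intervals also reach below 50% for H3K79me2 with H3.3 (40.0 to 63.9), with H4K16ac (18.4 to 90.1), and with H2AZ CST and H4K16ac (49.0 to 72.8).

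Around inner starts, as around starts at gene ends, the H2AZ, H3.3 and H4K16ac lists covered more starts on either side of the start than just upstream of it. Taking 386 distinct inner starts beside the sites and reading along the gene's strand, H2AZ Abcam peaks covered 73.6% of starts at 300 bp upstream, 61.9% at 100 bp upstream and 81.6% at 300 bp downstream. At 4763 starts beside gene-end 5-signal sites the shares were 72%, 63.7% and 81.5% at the same distances. H4K16ac covered 27.7% of inner starts at 300 bp upstream and 46.6% at 300 bp downstream, against 24.6% and 49.5% at the gene-end starts. For H3.3 these were 46.4% and 60.9% at inner starts, against 41.8% and 60.7%. At 200 bp downstream the coverage of inner starts was lower. H4K16ac covered 45.9% of inner and 55.3% of gene-end starts there, H3.3 58.5% and 66.2%, and H2AZ Abcam 79.5% and 85.1%. At 100 bp upstream inner starts were covered more often by H3.3 (35% against 32.4%), H4K16ac (20.2% against 17.5%) and H2AZ CST (50.3% against 47.4%). H2AZ Abcam and H3K79me2 (63.2% against 65.9%) covered them less often at that distance. H3K79me2 covered 69.7% of inner and 78.4% of gene-end starts at the start itself. The rule placed a peak of each list near every start, so the heights follow from it, while the side on which a signal lay was not used.

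H3K79me2 lay downstream of inner starts. It covered 46.4% of the inner starts at 3 kb downstream and 5.18% at 3 kb upstream, against 44.5% and 9.47% at gene-end starts. At 5 kb downstream it covered 34.7% of inner starts and 32.2% of gene-end starts. The middle of the H3K79me2 peak lay downstream of the inner start at 336 of 419 sites (80.2%, 76.0 to 83.9), by a median of 670 bp (566 to 759) over all of them. At gene-end starts it lay downstream in 81.3% (80.2 to 82.4) of 5186 peaks, by a median of 655 bp (625 to 678). The peak reached a median of 1427 bp (1231 to 1695) downstream of inner starts and 213 bp (173 to 325) upstream, against 1629 bp and 264 bp at gene-end starts. Summits were also more often downstream for H4K16ac (69.9% of sites), H3.3 (68.7%), H2AZ Abcam (66.6%) and H2AZ CST (63.2%).

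**Figure D3:**
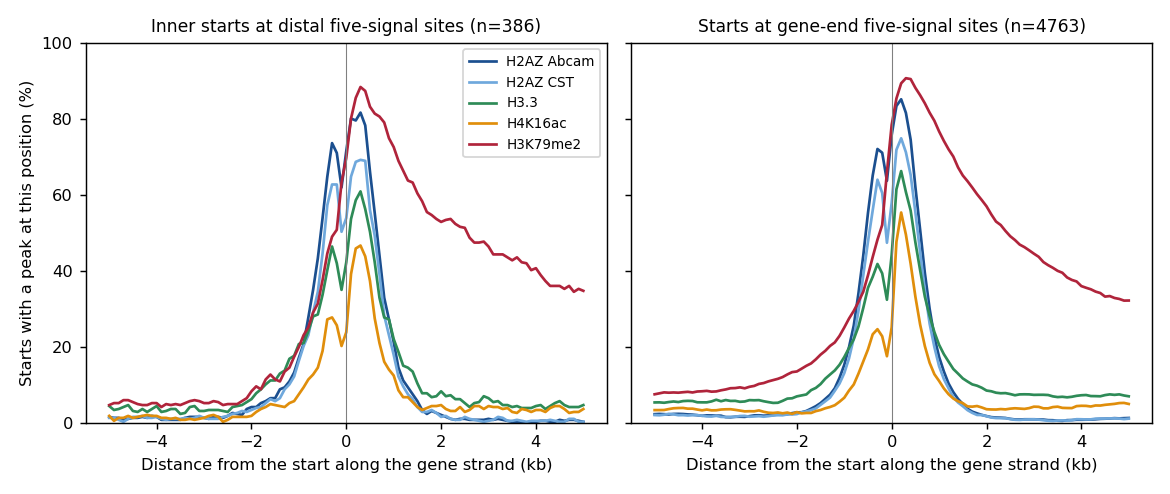
Share of starts (y axis, %) with a peak of each list at each distance from the start along the gene's strand (x axis, kb), for 386 inner starts at distal 5-signal sites on the left and 4763 starts at gene-end 5-signal sites on the right. In both panels the H2AZ, H3.3 and H4K16ac lists form a pair of maxima around the start, and H3K79me2 extends downstream, to 34.7% of inner starts and 32.2% of gene-end starts at 5 kb.

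H3K79me2 peaks over the sites were narrower than at gene ends, and their width differed with the annotation beneath them. The widest H3K79me2 peak over a site had a median width of 1067 bp (947 to 1159), against 2042 bp (1967 to 2110) at gene-end 5-signal sites and 1032 bp (920 to 1197) at the 934 other distal peaks that overlapped H3K79me2. All 54476 H3K79me2 peaks had a median of 496 bp. Wider than 2 kb were 29.4% (26.6 to 32.3) of the peaks over the sites, 50.7% (49.4 to 51.9) at gene ends and 13.2% of all H3K79me2 peaks, the last being the background for these shares. The rule required an H3K79me2 peak at every site, and a wider peak covers more bases. At inner starts of a host the median was 1639 bp (1429 to 2037) and 45.3% were wider than 2 kb. At lncRNA gene ends it was 1008 bp (824 to 1159), and at the 209 sites in a host with listed starts but nothing within 1 kb it was 693 bp (607 to 863), with 18.7% wider than 2 kb. In hosts with no entry in the table of starts 82 further sites had no feature found, with a median of 770 bp (634 to 1271). Outside protein-coding genes it was 739 bp (652 to 869) with 10.4% wider than 2 kb. Joining H3K79me2 peaks across gaps under 1 kb gave a median of 2130 bp over the sites. No joined width is given for gene-end sites, so this value cannot be set against their 2042 bp.

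The rule kept the sites over 5 kb from protein-coding gene ends, which limits how many of their H3K79me2 peaks can reach one. The H3K79me2 peak over the site reached within 1 kb of a protein-coding gene end at 13 of 1011 sites (1.29%, 0.686 to 2.19). After joining across gaps under 1 kb this held for 49 sites (4.85%, 3.61 to 6.36).

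**Figure D4:**
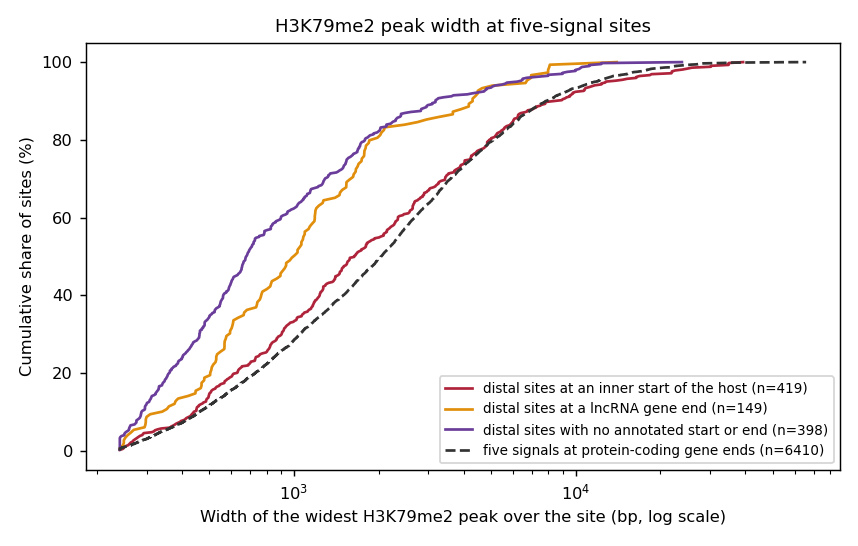
Cumulative share of sites (y axis, %) by the width of the widest H3K79me2 peak over them (x axis, bp, log scale). Distal sites at an inner start of the host (median 1639 bp) run close to gene-end 5-signal sites (2042 bp), while sites at lncRNA gene ends (1008 bp) and with no start or end found (679 bp) lie to the left.

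The widest H3K79me2 over a site was 39298 bp, over an inner start of CELF1, which encodes an RNA-binding regulator of splicing and translation (site at chromosome 11, 47552459 to 47553158). The next was 34921 bp in LARP1, which binds mRNAs of the translation machinery, where 3 sites shared the peak. DIDO1, a PHD-finger protein, had 30277 bp and the splicing factor gene SRSF11 had 30177 bp, and in both genes the same H3K79me2 peak also reached the outer start. MATR3, a nuclear matrix RNA-binding protein, had 25823 bp, and GATAD2A, a subunit of the NuRD complex, had 24950 bp. KANSL1, the scaffold of a KAT8 complex, had 23957 bp over an inner start 32585 bp from its outer 5′ end, where no list had a peak. BCOR, a corepressor of a Polycomb complex, had 23833 bp over a site with no annotated start. Thus 9 of these 10 sites lay at an inner start of their host, against 41.4% of all 1011 sites. The 3 LARP1 sites count separately here although they share 1 peak. At the other extreme, 15 sites tied at the lowest width of 241 bp. Of these 15, only that of SLC4A4, a bicarbonate cotransporter gene, had a listed inner start within 1 kb, 1 lay beside a lncRNA gene end and 13 had neither.

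Hosts with a site at an inner start differed in the signals at their outer 5′ end. A site lay at an inner start of 360 hosts, each taken once with its strongest site. At the outer 5′ end of 122 of them (33.9%, 29.0 to 39.0) no list had a peak within 1 kb, and all 5 lists had one in 113 (31.4%, 26.6 to 36.5). Over all 520 hosts of known strand these shares were 25.8% (22.1 to 29.8) and 39.2% (35.0 to 43.6). No share at the outer 5′ end is given for other genes, so these shares have no background. With both ends searched, no list had a peak in 20.3% of hosts and 18.6% of all protein-coding genes over 10 kb. The outer 5′ end is the edge of the whole gene. CNPY1 thus counts as having no list there, although peaks overlapped its outermost listed start. H2AZ Abcam lay at the inner start and not within 1 kb of the outer one in 148 hosts (41.1%, 36.0 to 46.4), and H3K79me2 in 210 (58.3%, 53.1 to 63.5). The rule put every list at the inner site, so these shares count only absence at the outer 5′ end. Where H2AZ Abcam lay at both, it had the higher −log10 q at the inner start in 120 of 212 hosts (56.6%, 49.6 to 63.4). For H3K79me2 this was 85 of 150 (56.7%, 48.3 to 64.7), for H3.3 97 of 188 (51.6%, 44.2 to 58.9) and for H4K16ac 83 of 160 (51.9%, 43.8 to 59.8). The intervals of these shares, which cover only hosts with the signal at both starts, include 50%. Where separate H3K79me2 peaks lay at both, that at the inner start was wider in 86 of 145 hosts (59.3%, 50.8 to 67.4), while the medians were 1817 bp (1457 to 2342) at inner and 1749 bp (1481 to 2320) at outer starts. The inner site was chosen for carrying all the signals and as the strongest of its gene, and the outer start was not, so these counts carry no test.

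Single genes showed each arrangement. SLC12A9 had −log10 q of 400 for H2AZ Abcam at the inner start and 220 at the outer, while for H3K79me2 it had 57.4 at the inner and 444 at the outer start, 25844 bp away. TRIM36 had 344 at the inner and 121 at the outer start for H2AZ Abcam, and its H3K79me2 was 1660 bp wide at the inner and 250 bp at the outer start. At LITAF, a lysosomal membrane protein gene, H2AZ Abcam had 329 at the inner and 8.79 at the outer start, and H3K79me2 was absent from the outer start. ZNF821, a zinc finger gene, had H3K79me2 of 703 bp at the inner and 22132 bp at the outer start.

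The outer ends of hosts were set beside those of other genes over 10 kb. H2AZ Abcam lay within 1 kb of an end in 426 of 606 hosts (70.3%, 66.5 to 73.9), against 75.4% (74.7 to 76.2) of the other genes, and 75.2% of all genes over 10 kb. The share of hosts depended on how the sites were called, at 77.6% with at least 50% of the peak covered by each list and 46.5% with the 10000 strongest peaks of each list. H3K79me2 lay at an end of 55% (50.9 to 59.0) of hosts and 59.4% (58.6 to 60.3) of other genes, and H4K16ac at 61.6% (57.5 to 65.4) and 54.6% (53.7 to 55.4). No list had a peak at an end in 123 hosts (20.3%, 17.2 to 23.7), against 18.5% of other genes and 18.6% of all genes over 10 kb. The strongest of those 123 were CNPY1, the cholesterol transporter gene ABCG1, the LIM homeobox gene LHX8, the glypican gene GPC6 and RNF14, a ubiquitin ligase gene. CNPY1, GPC6 and RNF14 had an inner start beside their site, LHX8 beside 1 of its 2, and ABCG1 has no entry in the table of starts.

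The sites had median values close to those of gene-end sites for H3.3 and H4K16ac, with intervals that overlapped, and lower ones for H2AZ and H3K79me2. Median −log10 q at the sites was 104 (96.5 to 112) for H2AZ Abcam, against 123 (120 to 125) at gene-end 5-signal sites and 9.95 at distal peaks without all the signals. For H2AZ CST it was 30.4 (28.3 to 32.4), against 37.2 (36.5 to 38.1) at gene ends and 11.4 elsewhere. For H3.3 it was 27.5 (26.0 to 29.3), against 26.7 (25.9 to 27.2) at gene ends, and for H4K16ac 10.3 (10.1 to 11.2), against 10.1 (9.82 to 10.2). For H3K79me2 it was 75.1 (61.6 to 88.0), against 220 (210 to 231) at gene ends and 56.7 (49.0 to 66.8) at the other distal peaks that had it. The authors' fold enrichment of H3K79me2 had a median of 22.2 at the sites and 47.1 at gene ends. The rule chose on overlap with these lists, so nothing is read from the gap to the other distal peaks. Summits of the strongest overlapping peaks lay a median of 33 bp (29 to 38) from the H2AZ Abcam summit for H2AZ CST, 45 bp (41 to 53) for H3.3, 49 bp (44 to 54) for H4K16ac and 72 bp (68 to 81) for H3K79me2.

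**Figure D5:**
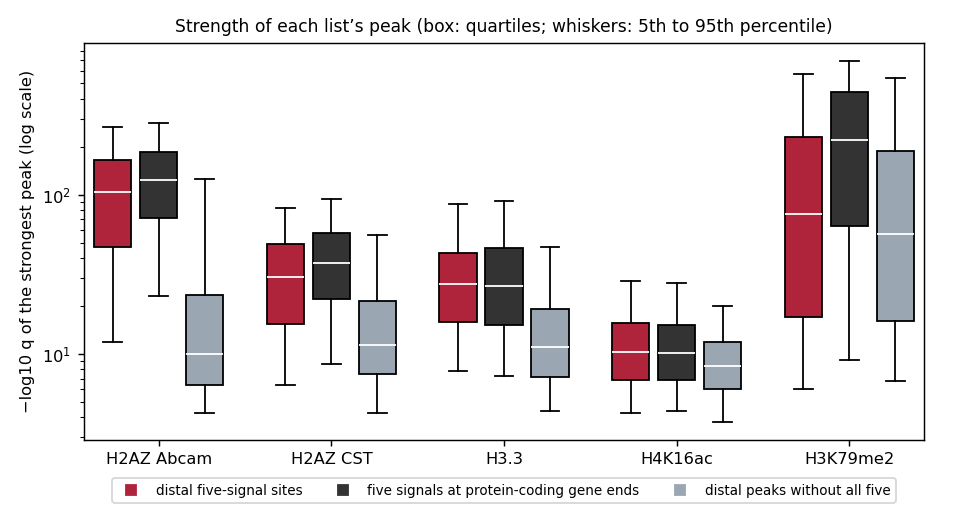
The authors' −log10 q (y axis, log scale) of the strongest peak of each list at distal 5-signal sites (red), gene-end 5-signal sites (black) and distal H2AZ Abcam peaks without all the signals (grey, where the list has a peak). Boxes are quartiles and whiskers the 5th to 95th percentile. Medians for H3K79me2 are 75.1, 220 and 56.7 in this order, and those for H4K16ac at the first pair of groups are 10.3 and 10.1.

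Among the 10 sites of highest H2AZ Abcam −log10 q, 6 lay outside protein-coding genes. The first, at chromosome 6, 150004577 to 150005789, overlapped an end of the pseudogene RAET1K and had −log10 q of 433 in the H2AZ Abcam list and 132 in the H2AZ CST list. Its H3K79me2 value was 65.4, with 22.3 in the H3.3 list and 12.7 in the H4K16ac list. A site at chromosome 15, 67840285 to 67840788, lay 240 bp from RNU6-1, which encodes the U6 small nuclear RNA, with −log10 q of 361 in the H2AZ Abcam list, 140 in H2AZ CST, 38 in H3.3, 27.6 in H4K16ac and 10.9 in H3K79me2. It had the highest H2AZ CST value of all sites. Others lay near ends of LOC105370680, LINC01023 and LOC107984935, which are lncRNA genes, and of the pseudogene DNM1P35. In hosts, MRC2, which encodes a collagen-binding endocytic receptor, had 334 for H2AZ Abcam, and has no entry in the table of starts. The inner start of CNPY1 had 331 in the H2AZ Abcam list, 78.4 in H2AZ CST, 84.1 in H3.3, 9.79 in H4K16ac and 39.7 in H3K79me2.

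Different hosts led the other lists. After the sites by RNU6-1 and RAET1K, H2AZ CST was highest at inner starts of B9D1, a ciliary transition zone gene, at 129, and of IBA57, an iron-sulfur cluster assembly gene, at 126. H3.3 was highest in SSBP4 at 176, a host with no entry in the table of starts, and at inner starts of FAM13B at 170 and of MXI1, a partner of MAX that opposes MYC, also at 170. PTCH1, the hedgehog receptor gene, followed at 163 for H3.3. H4K16ac was highest at 114, at a site near HIVEP3 outside protein-coding genes, then at the inner start of LUC7L2, a U1 snRNP splicing factor gene that the readthrough gene FMC1-LUC7L2 also spans, at 101.3. BICRAL, a subunit of the BAF remodeller, had 83.4 for H4K16ac beside the lncRNA gene LOC401261, and MNT, a repressor that pairs with MAX, had 63.6. The next after LUC7L2, with 100.8 for H4K16ac, lay at chromosome 3, 93470337 to 93470859, which is 402192 bp from the nearest protein-coding gene end. The authors' fold enrichment there was low, at 5.49 for H4K16ac, against 27.2 to 47.3 at the other 4 sites named for this list. For H2AZ Abcam it was 3.05 and for H3K79me2 1.71, the lowest of all sites in both.

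Some hosts held several sites. BCOR and GSE1 held 7 each, ABR held 6, and the mechanosensitive channel gene PIEZO1, the cytoskeletal gene SEPTIN9 and the H3K4 methyltransferase gene SETD1B held 5 each. DAB2IP, DGKZ, FAAP20 and RAI1 held 4 each. In SETD1B, 4 of the 5 sites lay under a single H3K79me2 peak of 7986 bp and 2 lay within 1 kb of an end of the lncRNA gene LINC01089. SETD1B itself has no entry in the table of starts. In GSE1 the site at an inner start had an H3K79me2 peak of 10007 bp, and the other 6 had peaks between 462 and 827 bp. In PIEZO1 none of the 5 sites had a listed start or an end within 1 kb, and H3K79me2 widths there ran between 381 and 8988 bp.

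Gene lists were read against the 4.23% of all protein-coding genes over 10 kb that were hosts. Of 47 genes known for alternative inner promoters, 13 were hosts (27.7%, 15.6 to 42.6). Of 40 developmental and lineage transcription factor genes 9 were hosts (22.5%, 10.8 to 38.5), of 40 genes of signalling enzymes and scaffolds 6 (15%, 5.71 to 29.8) and of 57 chromatin regulator genes over 10 kb 7 (12.3%, 5.08 to 23.7). The lists favour long genes, and they were drawn up with earlier results of these data known, so these shares have no test. Of the longest quartile of genes over 10 kb, 7.66% were hosts. That share lies within the intervals of the signalling and chromatin lists and below those of the other lists. The lists were not matched for gene length. In RUNX1, a blood lineage factor with a distal and a proximal promoter, the site lay at an inner start 160603 bp from the outer one, where no list had a peak, with −log10 q of 149 for H2AZ Abcam and an H3K79me2 peak of 406 bp. PDE4D, a cyclic AMP phosphodiesterase gene, had a site at an inner start 1482652 bp from its outer start, with 185 and 526 bp. In KCNQ1, a potassium channel gene, a pair of sites lay within 1 kb of an end of KCNQ1OT1, the imprinted antisense RNA gene, under an H3K79me2 peak of 4494 bp. ABR had its strongest site at an inner start, with 145 and 2338 bp. RARA, the retinoic acid receptor gene, had a pair of sites at inner starts with 187 and 99.1 for H2AZ Abcam and H3K79me2 peaks of 2568 and 1657 bp, and no list had a peak at its outer start. GNAI2, a G protein subunit gene, had 192 and 901 bp, and PRKCH, a protein kinase C gene, had 174 and 831 bp, both at inner starts. Among chromatin regulators, ARID1B, a BAF subunit gene, had 156 and 1146 bp, and HDAC7, a deacetylase gene, had 136 and 588 bp, both with no annotated start within 1 kb. The factor gene SOX6 likewise had none, with 138 and 611 bp.

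Of the 249 sites outside protein-coding genes, 112 (45%, 38.7 to 51.4) overlapped a lncRNA gene, against 24.9% (24.0 to 25.7) of the 10832 other distal peaks outside such genes. An end of a lncRNA gene lay within 1 kb of 106 sites (42.6%, 36.3 to 49.0), against 13.9% (13.2 to 14.6) of the other peaks. The end of another non-coding gene or pseudogene lay beside 36 sites (14.5%, 10.3 to 19.4), against 6.68% (6.22 to 7.17). Nothing was annotated within 1 kb of 107 sites (43%, 36.7 to 49.4), against 79.4% (78.7 to 80.2) of the other peaks. The median distance of the 249 sites to the nearest protein-coding gene end was 17460 bp (13992 to 20985), against 18181 bp (16360 to 19526) for the sites inside hosts.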

How the data were processed

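The tools named in the submitters' processing notes are MACS2 2.1.0 and Bowtie 1.1.2, beside Trimmomatic 0.33 and bcl2fastq 2.17, and coordinates are on hg38. Not given in the sources used here are their settings, how duplicates were handled, whether the input served as control, and the depth of each library. The deposited peak lists give, per peak, the authors' fold enrichment (a linear ratio), −log10 p, −log10 q and an integer display score. The −log10 p and score were not used. Values of the strongest overlapping peak are the authors' and describe peaks within a list.

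Genes came from RefSeq GRCh38.p14 (19974 protein-coding genes on chromosomes 1 to 22 and X). Strands and starts came from 34961 entries of a RefSeq table of starts, which held 15812 of those genes. No host on chromosome 8 had an entry, so none of the 33 sites there was counted at an inner start. Overlap, distance and interval code (Python 3.11.15, scipy 1.17.1) was tested on simulated data. There were no replicates, so results are descriptions. The sites, gene lists and comparisons were chosen with earlier results of these data known. Named sites and hosts are those of highest −log10 q in each list, of widest and narrowest H3K79me2, with most sites, with no signal at an end, and nearest the distance limit, and list members of highest H2AZ Abcam −log10 q. The design foresaw annotated inner transcripts and a genome, and the table of starts was used in their place. LITAF, ZNF821, KCNQ1 and, among the 15 tied narrowest sites, SLC4A4 were chosen after their values were seen. Settings varied were overlap, distance, widths, windows, peak strength and the starting list.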

Additional observations from a re-analysis of the deposited data

How the results depend on the processing

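The shares and medians compared kept within their main interval for distances of 2 and 10 kb, a −log10 q of at least 5, no width limit or one of 1000 bp, distance taken from the summit and sites taken from H2AZ CST, which gave 732 to 1369 sites. With at least 50% of the peak covered by each list, there were 478 sites, with a median H3K79me2 width of 1261 bp, 35.6% over 2 kb, 77.6% of hosts with H2AZ Abcam at an end, 55.6% with an annotated start or end and a median distance from the H2AZ Abcam summit to the middle of the H3K79me2 peak of 286 bp, against 249 bp. With the 10000 strongest peaks of each list there were 53 sites, with 1682 bp, 41.5%, 46.5%, 77.4% and 419 bp for the same measures. Avoiding the ends of all annotated genes left 588 sites, 87.9% of them in hosts. H3K79me2 width was 2130 bp with gaps under 1 kb joined (51.4% over 2 kb) and 3577 bp from first to last base within 5 kb (60.9%). The share with an annotated start or end was 56.5% within 500 bp and 64% within 2 kb. Chosen after seeing the data, it was 56.2% with protein-coding starts and lncRNA ends only, and 65.2% without sites on chromosome 8 or in genes that have no entry in the table of starts. The cause of these shifts was not tested. No paired analysis was possible because each antibody had 1 library. Lists called at other depths would give other overlaps, and depth per library is unknown.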
